A study of Homo sapiens with 2 samples.

Results

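The genes described here make cholesterol, its isoprenoid precursors and fatty acids, or control that synthesis. They were chosen by name, as 42 genes, and each was read from the probe set with exactly 1 annotated symbol and the highest mean log2 signal. Such a probe set existed for 37 of the 42, among 11963 genes with one on the array. The probe sets of CYP51A1 and FADS1 carry another gene's symbol too, and FDFT1, ACSL3 and NR1H2 were not analysed here. One sample was an H6c7 derivative that expresses an introduced K-ras oncogene, and the other the parental H6c7, a duct epithelial line of the human pancreas. The parental line had been immortalised with papillomavirus genes, which both samples therefore carry. The labels give no treatment or culture time, name no vector control and leave unsaid if the derivative is 1 clone. Total RNA of each was hybridised to 1 Affymetrix U133A array, so there is no spread between replicates, no p-value and no test of any difference below.

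Cells build cholesterol from acetyl-CoA through mevalonate and then squalene, and branches of the mevalonate route supply the farnesyl and geranylgeranyl lipids that anchor RAS proteins to membranes. When sterols in the endoplasmic reticulum run low, SCAP escorts the membrane-bound SREBP transcription factors to the Golgi, where the site-1 and site-2 proteases release their active part. INSIG proteins hold SCAP back when sterols are plentiful. SREBP2, from SREBF2, acts mainly on sterol genes, and SREBP1, from SREBF1, mainly on fatty acid genes.

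Both columns had the same mean signal after trimming, 150.06 in units of the deposited intensities. A signal of 46.9, the higher of the array medians, served as the floor. Genes under it on both arrays were taken as not measured. For genes under it on a single array the floor stands in for the low signal, and the ratio, written as at least N-fold, is a bound. At or above the floor were 11109 probe sets on the K-ras array and 10791 on the parental array. The signals of probe sets at the 3 prime and 5 prime ends of GAPDH stood in a ratio of 0.888 on the K-ras array and 0.817 on the parental array, and those of ACTB in ratios of 1.10 and 1.28. The duct keratins KRT7, KRT8, KRT18 and KRT19 were above 1000 on both arrays, while CFTR and SPP1, of the 10 duct markers read, were below the floor on both. Of the 8 duct markers measured, 4 were lower by 2-fold or more in K-ras cells, a larger share than the 14.4% of all measured genes. None was at least 2-fold higher, against 9.97%. The log2 ratios of the 4 were -1.46 for KRT19, -1.06 for EPCAM, -1.03 for SOX9 and a bound of -2.51 for CA2. The part of the duct markers in the results that follow was not tested. Of the islet and adipocyte markers read, 5 each, none reached the floor on either array. Of 6 acinar markers 1 was at or above it on each array, of 7 fibroblast markers 3 on the K-ras and 2 on the parental array, and of 5 leukocyte and 5 endothelial markers 1 each on the K-ras array and none on the parental array.

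The letters before the start sites of 5 of the genes are shown because SREBF2 was higher, and INSIG1, HMGCS1, MSMO1 and IDI1 were lower, in the K-ras line. Each run is the 250 bases before a RefSeq start, read 5′ to 3′ on the strand of the gene. Capitals mark matches, on either strand, to a sterol regulatory element written TCACNCCAC, to the NF-Y box CCAAT or to the E-box CACGTG. On the opposite strand the NF-Y box reads ATTGG here. Where a gene has several starts, the one with the most matches is shown.
SREBF2, GRCh38.p14 chr22:41832855-41833104, plus strand: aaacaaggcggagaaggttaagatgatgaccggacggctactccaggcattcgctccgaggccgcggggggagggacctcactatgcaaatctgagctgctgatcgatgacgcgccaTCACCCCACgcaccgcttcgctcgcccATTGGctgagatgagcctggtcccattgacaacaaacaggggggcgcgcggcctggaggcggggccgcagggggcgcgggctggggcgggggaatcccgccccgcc
INSIG1, GRCh38.p14 chr7:155297628-155297877, plus strand: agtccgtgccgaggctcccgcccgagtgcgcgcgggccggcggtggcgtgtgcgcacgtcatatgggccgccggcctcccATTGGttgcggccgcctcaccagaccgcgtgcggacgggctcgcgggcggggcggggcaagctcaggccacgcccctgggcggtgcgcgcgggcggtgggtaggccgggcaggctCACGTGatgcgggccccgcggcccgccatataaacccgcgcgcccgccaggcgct
HMGCS1, GRCh38.p14 chr5:43313413-43313662, minus strand: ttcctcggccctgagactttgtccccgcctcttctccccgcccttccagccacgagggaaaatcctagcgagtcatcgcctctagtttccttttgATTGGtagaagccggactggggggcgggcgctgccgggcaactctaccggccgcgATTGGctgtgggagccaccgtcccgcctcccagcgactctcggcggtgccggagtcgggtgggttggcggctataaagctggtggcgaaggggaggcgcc
MSMO1, GRCh38.p14 chr4:165327419-165327668, plus strand: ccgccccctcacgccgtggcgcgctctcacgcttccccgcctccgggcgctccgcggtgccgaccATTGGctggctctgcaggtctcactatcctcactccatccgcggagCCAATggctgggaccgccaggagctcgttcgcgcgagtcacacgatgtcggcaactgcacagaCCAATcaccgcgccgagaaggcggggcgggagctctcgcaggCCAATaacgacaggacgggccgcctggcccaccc
IDI1, GRCh38.p14 chr10:1048887-1049136, minus strand: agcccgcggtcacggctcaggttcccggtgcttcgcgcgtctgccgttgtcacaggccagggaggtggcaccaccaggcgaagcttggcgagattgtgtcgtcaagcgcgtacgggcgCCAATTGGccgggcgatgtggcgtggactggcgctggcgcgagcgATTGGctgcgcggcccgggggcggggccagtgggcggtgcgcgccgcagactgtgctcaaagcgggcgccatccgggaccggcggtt

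SREBP acts at promoters together with NF-Y. The SREBF2 run holds a sterol regulatory element at -133 to -125 from the start, counted with -1 as the base before it, and an NF-Y box at -106 to -102. HMGCS1 has NF-Y boxes at -155 to -151 and at -100 to -96, MSMO1 has 4, and IDI1 has 3, of which 2 overlap in the letters CCAATTGG. INSIG1 holds 1 NF-Y box and an E-box at -55 to -50. Over the 33 measured genes with a promoter in the table, an NF-Y box stood before at least 1 start in 23 (69.7%), against 2749 of 6376 measured genes on the array (43.1%) and 32.0% of all 35116 promoter windows of this length. By role it was found in 6 of 7 mevalonate genes, 7 of 7 sterol genes, 5 of 8 fatty acid genes and 3 of 8 regulators. The box was present in 6 of the 9 genes at least 2-fold lower (66.7%) and in 16 of the 22 under 2-fold (72.7%). The sterol element in this spelling was found in 2 of 33, SREBF2 and ACSL1, against 1.25% of measured genes and 0.883% of all windows, and the E-box in 4 of 33 (12.1%), against 11.7% of measured genes and 6.35% of all windows. These are matches of letters, not binding sites.

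**Figure D1:**
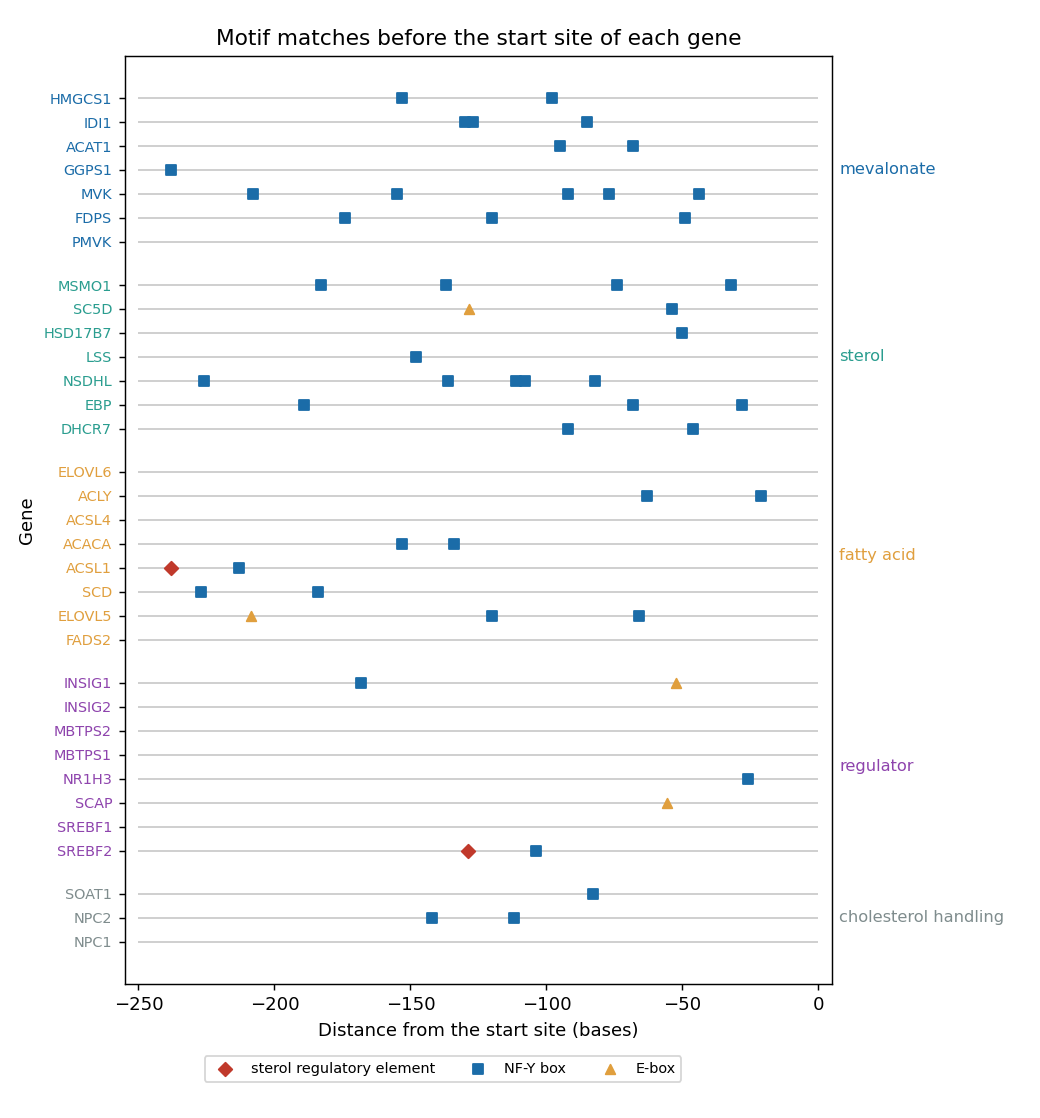
Matches to the sterol regulatory element, the NF-Y box and the E-box (symbols) in the 250 bases before 1 start of each of the 33 measured genes with a promoter in the table. The horizontal axis is the distance from the start in bases, and genes run down the page by role and then by log2 ratio. All 7 sterol genes shown hold an NF-Y box, and the sterol element appears in SREBF2 and ACSL1.

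Of the 37 genes 36 were measured, 32 of them above the floor on both arrays. In the K-ras line 2 (SREBF2 and NPC1) were at least 2-fold higher, against 9.97% of all 7693 measured genes, and 10 (27.8%) at least 2-fold lower, against 14.4%. The median log2 ratio of signals, K-ras over parental, was -0.64, against 0.10 over all measured genes, and 26 of the 36 (72.2%) had a ratio below 0, against 44.8% of all. Among the 25 measured enzymes 22 had a ratio below 0, 8 were at least 2-fold lower and none was at least 2-fold higher. The regulators lay on both sides, with 5 of 8 (62.5%) above 0, near the 55.1% of all measured genes. Signals are scaled to the whole array, so a ratio is relative to the other transcripts, and fewer cells expressing a gene cannot be told apart from less RNA per cell.

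**Figure D2:**
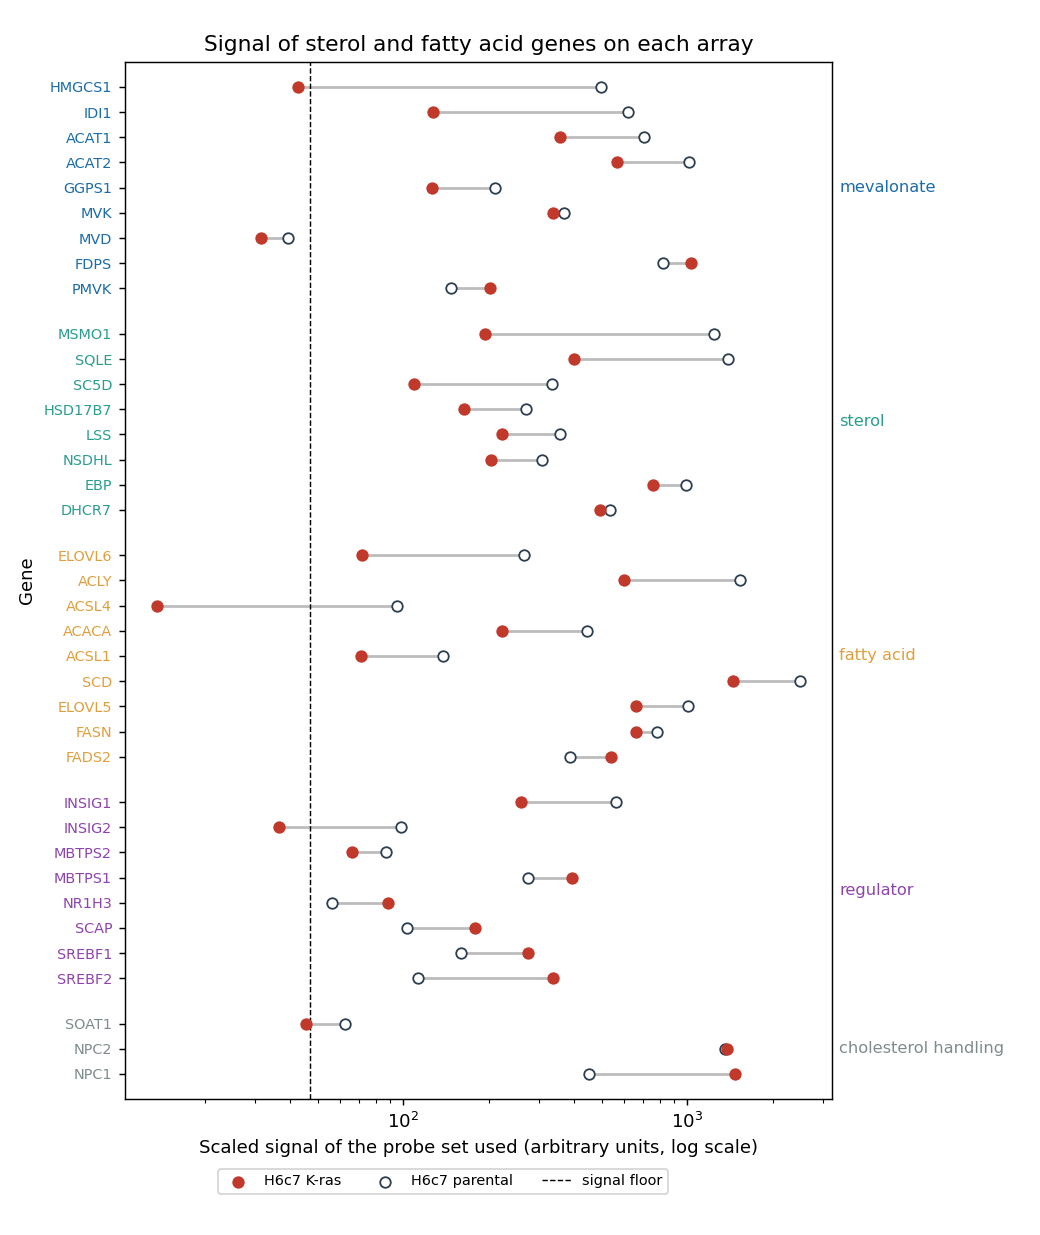
Scaled signal of each of the 37 genes on the K-ras array (filled) and the parental array (open), on a log axis in arbitrary units, with the floor of 46.9 as a dashed line. Genes run down the page by role. Signals of different genes come from different probes and are not to be ranked against each other. Most enzymes have the filled point to the left of the open one, and PMVK, FDPS, FADS2, 5 regulators, NPC1 and NPC2 have it to the right.

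The early mevalonate route was split between large and small differences. HMGCS1, the cytosolic synthase that joins acetyl-CoA to acetoacetyl-CoA, was read by probe set 205822_s_at and had a signal of 42.8 in K-ras cells and 499 in parental cells. Its K-ras signal was thus under the floor, at least 10.6-fold lower. Its other probe set gave a bound of -3.37 on the log2 scale, close to -3.41. The acetoacetyl-CoA thiolases differed less. ACAT1, the mitochondrial thiolase, had signals of 358 in K-ras and 703 in parental cells, a log2 ratio of -0.97. ACAT2, its cytosolic relative, had 568 and 1019 in the same order, a log2 ratio of -0.84. Both were lower by less than 2-fold.

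The kinases and the later prenyl steps showed no common direction. The signal of mevalonate kinase, MVK, was 336 in K-ras cells and 368 in parental cells, a log2 ratio of -0.13 that turned positive with scaling on maintenance probe sets. That of phosphomevalonate kinase, PMVK, was 202 in K-ras cells and 147 in parental cells, a log2 ratio of 0.46. MVD, the decarboxylase that follows, was below the floor on both arrays. IDI1, which interconverts the isoprene units, stood out with 127 in K-ras cells and 619 in parental cells, a 4.86-fold lower signal. Its 2 probe sets gave log2 ratios of -2.28 and -2.33, but both are of the _x_at kind, which can pick up related transcripts, so the value is uncertain. Farnesyl diphosphate synthase, FDPS, was on the other side, with 1035 in K-ras cells and 823 in parental cells, a log2 ratio of 0.33. GGPS1, which makes the geranylgeranyl unit, had 126 in K-ras cells and 210 in parental cells, a log2 ratio of -0.74. Its other probe set was below the floor in parental cells alone and gave a bound of 0.38, so the direction for GGPS1 is unsettled. Over the 8 measured mevalonate genes 2 (25.0%) were at least 2-fold lower, against 14.4% of all measured genes, and none higher, against 9.97%. Their median log2 ratio was -0.79. Without _x_at and _s_at probe sets, which leaves fewer genes, that median was -0.13.

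All 8 measured genes of the squalene and sterol steps had a lower signal in K-ras cells, against 44.8% of all measured genes. With scaling on maintenance probe sets, though, DHCR7 turned to 0.09. The median log2 ratio of the 8 was -0.70. Of the 8, 3 (37.5%) were at least 2-fold lower, against 14.4% of all measured genes, and none higher, against 9.97%. The lowest ratio was that of MSMO1, which oxidises the methyl groups at carbon 4 of the sterol ring. On probe set 209146_at its signal was 194 in K-ras cells and 1246 in parental cells, a 6.43-fold lower level. Squalene epoxidase SQLE, a rate-limiting step of the sterol branch, had 398 in K-ras cells and 1394 in parental cells. Its 3 probe sets gave log2 ratios of -1.81, -1.49 and -0.92, so all were lower and 2 passed 2-fold. SC5D, the desaturase that acts late in the route, had 110 in K-ras cells and 335 in parental cells, 3.05-fold lower on its 1 measured probe set.

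The other sterol enzymes were under 2-fold. Lanosterol synthase LSS had 224 in K-ras cells and 356 in parental cells, a log2 ratio of -0.67, but its other probe set above the floor gave 0.18. NSDHL, which removes the carbon 4 methyl groups after MSMO1 has oxidised them, gave -0.60 and -0.67 on the log2 scale with its 2 probe sets. HSD17B7, which completes that removal, stood at -0.72 on the log2 scale, uncertain because its probe set is of the _x_at kind. The isomerase EBP had 756 in K-ras cells and 989 in parental cells, a log2 ratio of -0.39, and 0.06 and -0.04 in its other probe sets. DHCR7, which performs the last reduction to cholesterol, had 495 in K-ras cells and 535 in parental cells, a log2 ratio of -0.11, with -0.84 in its other probe set. For LSS, EBP and DHCR7 the probe sets of the gene thus differed by at least as much as the arrays did.

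Fatty acid genes were lower to a similar degree. Over the 9 measured ones the median log2 ratio was -0.96. Of the 9, 3 (33.3%) were at least 2-fold lower, against 14.4% of all measured genes, and none higher, against 9.97%. ACLY, which makes cytosolic acetyl-CoA from citrate, had 598 in K-ras cells and 1537 in parental cells, 2.57-fold lower. Its 3 probe sets gave -1.36, -1.15 and -0.88. ACACA, the carboxylase that commits acetyl-CoA to fatty acids, had 223 in K-ras cells and 443 in parental cells, a log2 ratio of -0.99. FASN, the synthase that builds palmitate, differed least among the fatty acid genes with a lower signal, with 663 in K-ras cells and 782 in parental cells and a log2 ratio of -0.24.

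Elongation and desaturation genes did not share a direction. ELOVL6, which extends palmitate, had 71.7 in K-ras cells and 266 in parental cells, 3.71-fold lower, and its other probe set gave a bound of -0.91. ELOVL5, which extends polyunsaturated acids, had 658 in K-ras cells and 1011 in parental cells, a log2 ratio of -0.62. Another ELOVL5 probe set, below the floor in parental cells alone, gave a bound of 1.29 in the opposite direction. SCD, the desaturase that makes oleate, had 1455 in K-ras cells and 2495 in parental cells, and its 4 probe sets ranged from -0.78 to -0.36 on the log2 scale, all lower and none past 2-fold. FADS2, the desaturase of polyunsaturated acids, was the only fatty acid gene with a higher signal in the probe set used, with 540 in K-ras cells and 388 in parental cells, a log2 ratio of 0.48.

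Of the enzymes that activate long-chain acids with coenzyme A, ACSL1 had 71.1 in K-ras cells and 138 in parental cells, a log2 ratio of -0.96 against 0.06 in its other probe set. ACSL4, which prefers arachidonate, had 13.6 in K-ras cells and 95.6 in parental cells, at least 2.04-fold lower. The size of its ratio depends on the floor, and with no floor the log2 ratio was -2.81. ACSL4 stayed at least 2-fold lower with each floor choice in which it was measured, and was not measured with the highest floor. With scaling on maintenance probe sets its ratio was a bound of -0.83 on the log2 scale, under 2-fold. ACSL4, INSIG2 and INSIG1, at -1.03 to -1.12, were the genes just past the threshold, and ACACA, ACAT1 and ACSL1, at -0.99 to -0.96, the ones just short of it.

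**Figure D3:**
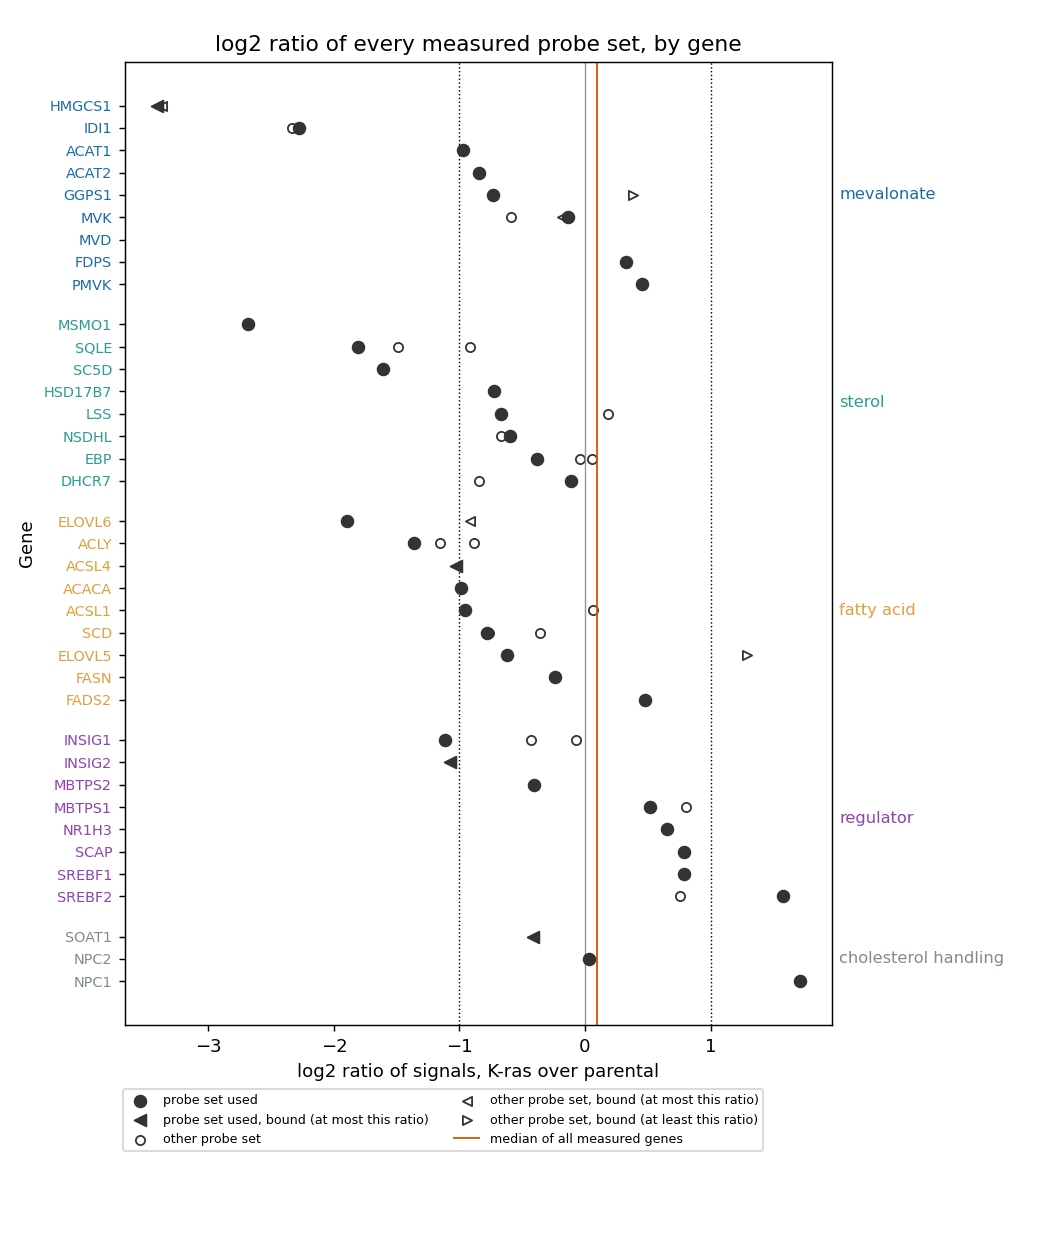
log2 ratio of signals, K-ras over parental (horizontal axis), for every probe set of the genes that reached the floor on at least 1 array. Filled symbols are the probe sets used, open symbols the others, triangles are bounds pointing to where the true ratio lies, dotted lines mark 2-fold, and the orange line is the median of all measured genes, 0.10. The probe sets of HMGCS1, IDI1 and NSDHL lie close together, and those of INSIG1, ACSL1, GGPS1 and ELOVL5 far apart.

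The probe sets of 1 gene are the only repeat measurement in these data, and they are technical. For 13 genes of this set at least 2 probe sets passed the floor on the K-ras and the parental array, and in 10 all of these lay on the same side of 0. The exceptions were LSS, EBP and ACSL1. The pooled standard deviation within a gene was 0.39 on the log2 scale, against 0.46 over 1671 genes of the array. On the probe sets used, log2 ratios of HMGCS1, MSMO1, IDI1, ELOVL6, SQLE, NPC1, SC5D and SREBF2 were over 3 times 0.46 in size. So were other probe sets of HMGCS1 (bound of -3.37), IDI1 (-2.33) and SQLE (-1.49). Those of SREBF2 (0.76), SQLE (-0.92) and ELOVL6 (bound of -0.91) were not. The ratios of MVK, FDPS, FASN, EBP, DHCR7, NPC2, SOAT1, MBTPS2 and, narrowly, PMVK were smaller than 0.46. This spread is between probe sets on the same 2 arrays and does not measure the variation between cultures.

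Among the regulators SREBF2, SREBF1 and SCAP had the higher signal in the K-ras line, and both INSIG genes the lower one. SREBF2, on probe set 201248_s_at, had a signal of 337 in K-ras cells and 113 in parental cells, 2.99-fold higher. Its other probe set, with signals of 252 in K-ras and 149 in parental cells, gave a log2 ratio of 0.76, under 2-fold. SREBF1 had 276 in K-ras cells and 160 in parental cells, a log2 ratio of 0.79 on its only probe set. SCAP, the escort, had 179 in K-ras cells and 103 in parental cells and the same log2 ratio of 0.79. Of these 3 genes SREBF2 is the one whose promoter letters, printed earlier, hold the sterol element. The proteases split, with the site-1 protease MBTPS1 at 393 in K-ras cells and 275 in parental cells, a log2 ratio of 0.52, and 0.81 in its other probe set. The site-2 protease MBTPS2 had 66.0 in K-ras cells and 87.3 in parental cells, a log2 ratio of -0.40.

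The retention proteins were both lower in the probe sets used. INSIG1, itself a target of SREBP, had 260 in K-ras cells and 564 in parental cells, 2.17-fold lower, while the remaining probe sets stood at -0.43 and -0.07 on the log2 scale. With the median over probe sets it was not past 2-fold. INSIG2, its relative, had 36.5 in K-ras cells and 98.6 in parental cells, at least 2.10-fold lower on its only probe set. Both were under 2-fold with scaling on maintenance probe sets and with the floor as a pseudocount. NR1H3, an oxysterol receptor of the LXR family, had 88.2 in K-ras cells and 56.0 in parental cells, a log2 ratio of 0.66. Over the 8 measured regulators the median log2 ratio was 0.59. Of the 8, 1 (12.5%) was at least 2-fold higher, against 9.97% of all measured genes, and 2 (25.0%) lower, against 14.4%.

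The genes that move and store cholesterol did not share a direction. NPC1, the lysosomal membrane protein that exports cholesterol, was read by probe set 202679_at and had 1475 in K-ras cells and 450 in parental cells. It was 3.28-fold higher, the highest ratio of the 36 measured genes of the set. Its other probe set was below the floor on both arrays. NPC2, the soluble protein that hands cholesterol to NPC1, had 1386 in K-ras cells and 1357 in parental cells, a log2 ratio of 0.03. SOAT1, which esterifies cholesterol for storage, was close to the floor, with 45.7 in K-ras cells and 62.6 in parental cells.

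**Figure D4:**
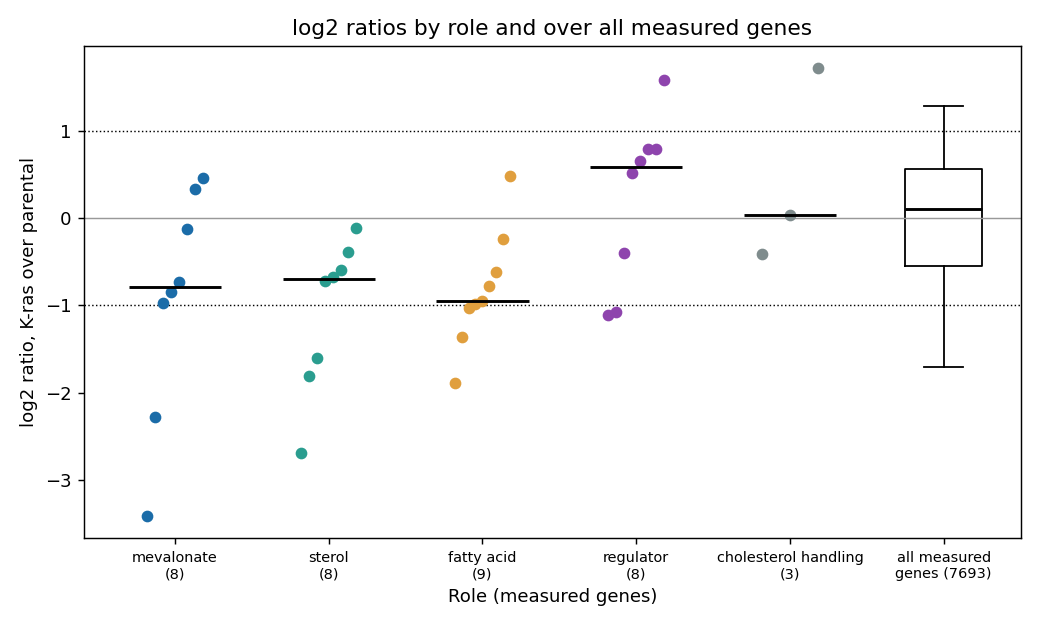
log2 ratio of signals, K-ras over parental, for each measured gene (points) by role, with the median as a bar, beside all 7693 measured genes as a box of the quartiles with the median and whiskers at the 5th and 95th percentiles. Dotted lines mark 2-fold, and the number of measured genes is under each role. The medians of the mevalonate, sterol and fatty acid genes lie at -0.79, -0.70 and -0.96, and that of the regulators at 0.59.

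The medians of the enzymes and of the regulators kept their signs under the scalings tried, while 3 of the 8 regulators were below 0 and 3 to 5 of the 25 enzymes above 0 in each. The median log2 ratio was between -0.88 and -0.58 for the 25 enzymes and between 0.49 and 0.78 for the regulators under all 5 other scalings tried, with the all-gene median between 0.02 and 0.24. Scaling on 100 maintenance probe sets raised the all-gene median to 0.24. This scaling adds nearly the same amount to each log2 ratio, so it moves the medians together, and median centring likewise shifts them together. The values as deposited gave nearly the ratios used, since their trimmed means were already almost equal. Signs kept under these scalings are therefore a weak check. With the maintenance scaling the genes at least 2-fold lower were 7 of 36. The balance over all 7592 measured genes was then 1093 higher and 844 lower. In the scaling used it was 767 higher and 1109 lower of 7693. Whether the roles differ beyond the variation between cultures could not be tested with 1 array a line.

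Other genes of the pathway, from lists of names, were mixed. Among 10 measured genes of further SREBP targets and sterol enzymes 3 were at least 2-fold higher, against 9.97% of all measured genes. Of the 3, 1 was a bound of at least 2.03-fold, with a parental signal of 43.0, just under the floor. At least 2-fold lower were 4 of the 10, against 14.4%, so both shares were above those of all measured genes. The median log2 ratio was -0.53. LBR, the lamin B receptor, which is also a sterol reductase, had 105 in K-ras cells and 513 in parental cells, 4.87-fold lower. MID1IP1, which promotes the assembly of acetyl-CoA carboxylase, had 922 in K-ras cells and 246 in parental cells, 3.75-fold higher. TMEM97, a sterol-regulated membrane protein that binds NPC1, had a log2 ratio of -1.53, but its other probe sets ran from -2.06 to 1.20.

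LXR receptors are activated by oxysterols and raise genes of cholesterol efflux. Of 7 measured LXR targets 1 (14.3%) was at least 2-fold higher, against 9.97% of all measured genes, and none lower, against 14.4%. The list shares SREBF1, SCD and NR1H3 with the genes above. Of the 4 measured targets not shared, 2 had a ratio below 0, 3 of the ratios were bounds, and the median log2 ratio was 0.01. The 1 at least 2-fold higher was the sterol exporter ABCG1, at 391 in K-ras cells and 37.6 in parental cells, at least 8.33-fold higher. Next by size were SREBF1 and SCD, in opposite directions.

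Of 12 measured genes that use isoprenoids 1 (8.33%) was at least 2-fold higher and 2 (16.7%) lower, near the shares of all measured genes, 9.97% and 14.4%, and the median log2 ratio was -0.03. ZMPSTE24, a protease that trims farnesylated proteins, had 138 in K-ras cells and 926 in parental cells, 6.72-fold lower. RABGGTA, a subunit of the transferase that prenylates RAB proteins, had 369 in K-ras cells and 125 in parental cells, 2.95-fold higher. PDSS1, which builds the side chain of coenzyme Q, was 2.26-fold lower. FNTA, the subunit shared by farnesyltransferase and its geranylgeranyl relative, had 1043 in K-ras cells and 1015 in parental cells, a log2 ratio of 0.04. It was picked after its value had been seen, because RAS proteins are substrates of the enzyme.

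Of 10 measured genes for the transport and turnover of the SREBP machinery 1 (10.0%) was at least 2-fold lower, against 14.4% of all measured genes. None was at least 2-fold higher, against 9.97%. Of the 10, 8 (80.0%) had a ratio below 0, against 72.2% of the 36 genes and 44.8% of all. The median log2 ratio was -0.65, against -0.64 over the 36 genes and 0.10 over all. The 1 at least 2-fold lower was SEC23A, a coat protein of the vesicles that leave the endoplasmic reticulum. It had 121 in K-ras cells and 360 in parental cells, 2.99-fold lower, and a log2 ratio of -1.28 in its other probe set. ERLIN2, part of a complex that restrains SREBP activation, had a log2 ratio of -0.94, and the coat protein SEC24C 0.80, both under 2-fold.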

How the data were processed

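The authors deposited a single linear intensity for each of 22283 probe sets on either array, 68 of them controls. Which software made it and how it was scaled are not given in the sources used here, and the equal means were read as a scaling already done. Per the labels, RNA was extracted with phenol and chloroform and cleaned on columns. The arrays were rescaled to a common mean after trimming 2% at each end. Symbols came from the platform annotation, 19059 of 19071 single-symbol probe sets being matched by gene number to RefSeq, with no symbol changed. Promoter letters are RefSeq's, build GRCh38.p14, cut to the 250 bases before each start.

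A gene counted as higher or lower at 2-fold. All 42 genes are named, and up to 3 genes of each further list by size of ratio, with FNTA added after its value was seen. The genes, the lists and the settings were chosen with earlier results of these data known. With 1 array a group no test was run, and precision is limited by the number of arrays. The steps were tested on simulated data. Alternatives were 5 scalings, a floor at percentile 30 or 70, none at all or as a pseudocount, 2 probe set choices and a 3-fold threshold. Python 3.11.15, numpy 2.4.6, pandas 2.3.3 and statsmodels 0.14.6 were used. The level of the introduced oncogene was not analysed here.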

Additional observations from a re-analysis of the deposited data

How the results depend on the processing

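No paired analysis was possible because each line has 1 array. A shift of a ratio was read against 0.46, the standard deviation between probe sets of 1 gene, in place of replicates. That is wide for a median, so the medians are given by their range, -0.89 to -0.13 for mevalonate, -0.79 to -0.50 for sterol, -1.05 to -0.70 for fatty acid genes, 0.42 to 0.78 for regulators and -0.07 to 0.87 for cholesterol handling. None of the 12 genes of this set at least 2-fold higher or lower changed direction under the alternatives in which it was measured. The genes described here that were at least 2-fold lower numbered 10, and 5 to 13 under the alternatives, with 5 without _x_at and _s_at probe sets, where 25 were measured, and 6 at 3-fold. Those higher numbered 2, and 1 in these 2 settings, NPC1, since SREBF2 then rests on the probe set at 0.76 or lies under 3-fold. HMGCS1, MSMO1, SQLE and ELOVL6 were at least 2-fold lower and NPC1 at least 2-fold higher under all 11 alternatives that keep the 2-fold threshold. IDI1, SC5D and ACLY were at least 2-fold lower in all 10 of these in which they were measured. INSIG1 kept the call in 8 of 12 settings, the one used included. The mevalonate median was -0.13 without _x_at and _s_at probe sets, and that of the cholesterol handling genes 0.87 with the floor at the 70th percentile, as SOAT1 is then not measured. Over all genes, at least 2-fold higher and lower were 1363 and 1411 of 9794 measured with the floor at the 30th percentile. They were 451 and 632 of 4987 at the 70th, and 2428 and 1797 of 11963 with no floor. With the floor as a pseudocount they were 469 and 837 of 7693. Without _x_at and _s_at probe sets they were 460 and 721 of 4656. At 3-fold, higher and lower were 185 and 480 of 7693. Signals near the floor limit HMGCS1, ACSL4, INSIG2 and SOAT1 to bounds.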

Other observations

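Fatty acid oxidation, the opposite route to the synthesis described above, was measured by 10 of its 14 listed genes, with a median log2 ratio of 0.24, against 0.10 over all measured genes. In the K-ras line 2 of the 10 (20.0%) were at least 2-fold lower, against 14.4% of all measured genes. None was at least 2-fold higher, against 9.97%. ACAA2, the mitochondrial thiolase that releases acetyl-CoA, had a signal of 27.9 in K-ras cells and 171 in parental cells, at least 3.64-fold lower. ACADM, the medium-chain acyl-CoA dehydrogenase, had 22.3 in K-ras cells and 153 in parental cells, at least 3.26-fold lower. The very-long-chain dehydrogenase ACADVL had 488 in K-ras cells and 255 in parental cells, a log2 ratio of 0.93, under 2-fold.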
